A study of Lactuca sativa with 36 samples.

Results

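The 4 genes described here were 2 thioredoxin 1 (trxA) genes, Lsat_1_v5_gn_8_117960 and Lsat_1_v5_gn_4_116621, and 2 genes that the study lists under the term cell redox homeostasis, Lsat_1_v5_gn_7_16240 and Lsat_1_v5_gn_4_59381. They are called 8_117960, 4_116621, 7_16240 and 4_59381 from here on. They were taken from the 19584 genes in the deposited table by identifier, and the value of a gene is the sum over its isoforms of the FPKM, the number of fragments per kilobase of transcript scaled to the size of the library. All 4 had been selected on expression differences between groups of these same libraries, so the comparisons in which a gene was listed as changed are given as values with no p-value. Of the thioredoxin genes, 4_116621 was listed as changed in roots without melatonin after the first day, the comparison that led to the choice of 8_117960 was not clear, and no p-value is given for either.

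The libraries were made from roots and leaves of Italian lettuce seedlings watered with nutrient solution. Seedlings received a nutrient solution with 1 μmol/L melatonin (CdM) or without it (Cd), and both sets were then exposed to 50 μmol/L CdCl2. Roots and leaves were collected on days 0, 1 and 5 of CdCl2, which gave 12 groups of 3 libraries, called RCdM0, RCdM1, RCdM5, RCd0, RCd1 and RCd5 in roots and LCdM0, LCdM1, LCdM5, LCd0, LCd1 and LCd5 in leaves. All groups belong to the CdCl2 experiment, and no group kept without CdCl2 to day 1 or day 5 was used, so days of exposure and days of growth cannot be told apart. The labels call the 3 libraries of a group biological repeats, and how many seedlings made up 1 library was not given in the sources used here. The labels of RCdM1 replicate 2 and LCdM1 replicate 2 differ from those of their group in the days of growth before CdCl2.

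Thioredoxins are small proteins with a pair of cysteines that pass electrons to disulfide bonds in other proteins and so switch enzymes between an oxidised and a reduced form. In leaves, chloroplast thioredoxins are reduced by light-driven electrons, whereas cytosolic and mitochondrial thioredoxins receive electrons from NADPH through thioredoxin reductase. Glutaredoxins do related work with electrons from glutathione, peroxiredoxins use thioredoxin to remove hydrogen peroxide, and sulfur assimilation supplies the cysteine from which glutathione and the cadmium-binding phytochelatins are built. Cadmium binds to thiol groups, which is why the redox genes are of interest in cadmium-exposed plants.

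The tissue labels fitted the leaf markers: 44 photosynthesis and antenna genes summed to 780 to 3161 FPKM in root libraries and to 155476 to 335540 FPKM in leaf libraries, and none of the 44 was listed at 0 in every library. The 44 genes came from the study's term tables of genes changed between groups of these libraries. Differences of their sum between groups are therefore not independent of that choice. Among roots the marker sum was 2080 to 3161 FPKM in RCdM0 and 1072 to 1257 FPKM in RCd0, so that these groups did not overlap. It was 950 to 1218 FPKM in RCdM1 and 780 to 903 FPKM in RCd1, also without overlap. In CdM leaves it was 328331 to 335540 FPKM on day 0, 249796 to 271600 FPKM on day 1 and 155476 to 194194 FPKM on day 5. In Cd leaves it was 311546 to 333531 FPKM on day 0, 202253 to 236401 FPKM on day 1 and 190564 to 253078 FPKM on day 5, so that LCdM1 lay above LCd1 without overlap. The table gives no read counts, so the depth behind a value is unknown, and values of whole tissues cannot tell fewer cells of a type from less RNA per cell. FPKM summed over all genes was 1259740 to 1426920 in roots and 1729630 to 2611850 in leaves, and differences were therefore also computed after scaling every library to the same total. All 4 genes passed the filter of at least 1 FPKM in at least 3 libraries in roots, in leaves and in all 36 libraries together.

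The first thioredoxin gene, 8_117960, was the most variable of the 4 genes between libraries of 1 group, with a median coefficient of variation of 41.1% over the 12 groups. CdM roots held 41.1, 13.2 and 32.2 FPKM on day 0, 14.9, 25.7 and 62.4 FPKM on day 1, and 61.3, 42.7 and 65.5 FPKM on day 5. Cd roots held 10.3, 9.22 and 10.4 FPKM on day 0, 36.1, 47.8 and 38.9 FPKM on day 1, and 22.8, 23.2 and 12.1 FPKM on day 5. The 3 RCd0 libraries were low and close together, every RCd1 library lay above them, and the RCd5 libraries lay between. The RCdM5 libraries all lay above the RCd5 libraries, whereas RCdM1 replicate 3 stood above all RCd1 libraries and the other 2 RCdM1 libraries stood below them.

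On the log2(FPKM + 1) scale, 8_117960 was 1.93 ± 0.45 (SE) higher in RCd1 than in RCd0 and the RCd5 minus RCd1 difference was -1.09 ± 0.45. With melatonin the day 1 level differed from the day 0 level by 0.15 ± 0.45, and the difference between those first-day changes, CdM minus Cd, was -1.78 ± 0.64. The melatonin difference was 1.30 ± 0.45 on day 0, -0.48 ± 0.45 on day 1 and 1.53 ± 0.45 on day 5.

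In leaves 8_117960 was widely spread within groups. CdM leaves held 168, 49.7 and 140 FPKM on day 0, 27.7, 66.1 and 31.6 FPKM on day 1, and 26.2, 63.8 and 46.4 FPKM on day 5. Cd leaves held 118, 32.2 and 125 FPKM on day 0, 94.3, 50.3 and 91.4 FPKM on day 1, and 46.9, 49.0 and 20.5 FPKM on day 5. Replicate 2 was the lowest library of LCdM0, LCd0 and LCd1 and the highest of LCdM1, LCdM5 and LCd5. Of the leaf comparisons between days or with melatonin, only LCd5 against LCd1 had no overlap, with a difference of -1.04 ± 0.58, while LCd1 differed from LCd0 by -0.05 ± 0.58, or by 0.22 with every library scaled to the same total.

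**Figure D1:**
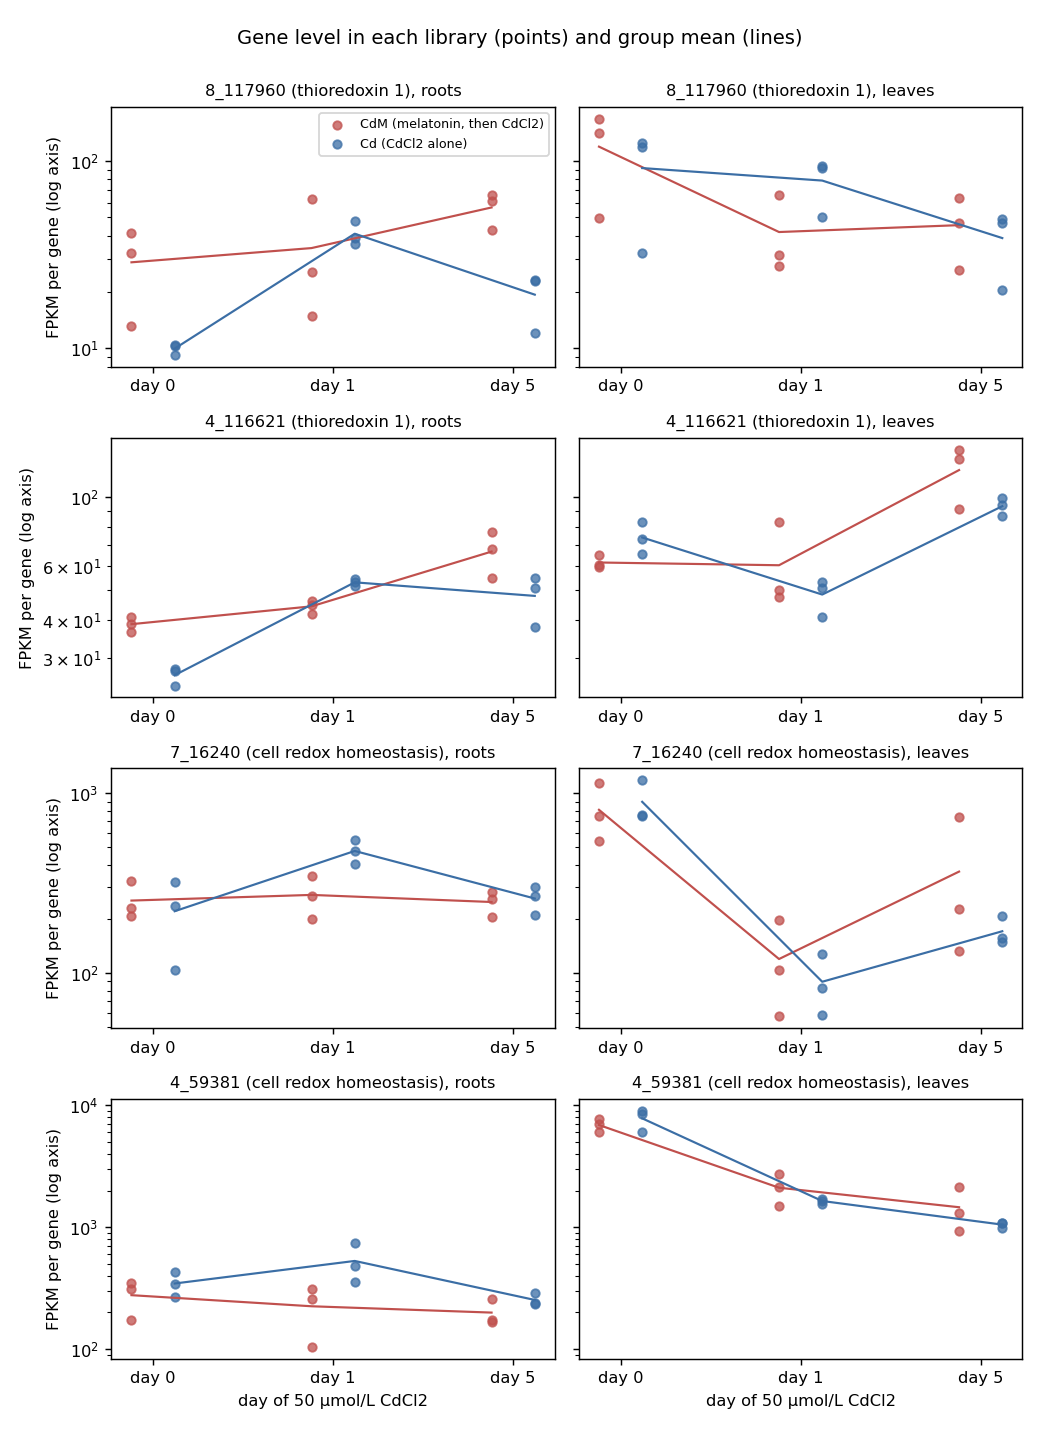
FPKM per gene (log axis) of 8_117960, 4_116621, 7_16240 and 4_59381 on days 0, 1 and 5 in roots (left panel of each pair) and leaves (right panel); points are libraries and lines join group means, with CdM in red to the left of Cd in blue. The points of 4_59381 sit at 104 to 748 FPKM in roots and at 925 to 9003 FPKM in leaves, and those of 8_117960 spread widely within most groups.

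The spread of 8_117960 lay in 1 of its 2 isoforms. The annotated isoform had a median coefficient of variation within groups of 9.99%, against 82.5% for the isoform that the study's long reads added, called novel01. The annotated isoform ranged over 6.41 to 16.1 FPKM in roots and 17.8 to 39.2 FPKM in leaves, so that the tissues did not overlap in these values. Leaf libraries also had the larger FPKM totals, as given above, and the isoforms were not compared at equal totals. The added isoform ranged from 0 to 129 FPKM and was listed at 0 in 5 libraries, 4 of roots and 1 of leaves.

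In Cd roots the day 1 level of 8_117960 differed mostly through this added isoform. It held 25.5, 33.4 and 22.8 FPKM in RCd1, whereas in RCd0 it was listed at 0 in 2 libraries and at 0.0322 FPKM in the other. The annotated isoform held 10.6, 14.4 and 16.1 FPKM in RCd1 and 10.3, 9.19 and 10.4 FPKM in RCd0, also without overlap. The added isoform made up 88.0% of the difference in mean FPKM between RCd1 and RCd0 and 91.9% of that between RCdM5 and RCd5. It held 0, 11.6 and 49.1 FPKM in RCdM1, so the wide range of that group also came from it. How the authors' software divided reads between the 2 isoforms was not tested.

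In leaves the annotated isoform of 8_117960 gave an order of days that the gene total showed only in part. It held 38.8, 34.7 and 30.5 FPKM in LCdM0, 27.7, 27.5 and 27.2 FPKM in LCdM1, and 24.5, 19.4 and 17.8 FPKM in LCdM5. It held 37.2, 27.8 and 39.2 FPKM in LCd0, 23.6, 26.0 and 25.6 FPKM in LCd1, and 21.6, 20.1 and 20.1 FPKM in LCd5. Each later day lay below the day before it without overlap, in CdM and in Cd leaves. On day 1 every LCdM1 library lay above every LCd1 library, by a mean of 27.5 against 25.1 FPKM. The leaf marker sum was also higher in LCdM1, as given above, and its part in this was not tested. FPKM summed over all genes also fell over the days. Its median was 2387960 in LCdM0, 2308650 in LCdM1 and 1807900 in LCdM5, and 2463700 in LCd0, 2057890 in LCd1 and 1824070 in LCd5. Whether the order of days holds at equal totals was not tested. The isoform values of this paragraph were not scaled to equal totals.

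The second thioredoxin gene, 4_116621, which the study also lists under oxidoreductase activity, was the steadiest of the 4, with a median coefficient of variation of 9.23%. CdM roots held 38.6, 36.6 and 40.8 FPKM on day 0, 44.7, 46.1 and 41.7 FPKM on day 1, and 68.0, 77.1 and 54.8 FPKM on day 5. Cd roots held 24.4, 27.2 and 27.6 FPKM on day 0, 51.3, 54.4 and 52.9 FPKM on day 1, and 50.8, 37.9 and 54.6 FPKM on day 5. RCd0 was the lowest of all 12 groups and every RCd1 library was above it. In CdM roots each later day lay above the day before it without overlap, and in Cd roots day 5 overlapped day 1.

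The difference of 4_116621 between RCd1 and RCd0 was 0.98 ± 0.14 (SE) on the log2(FPKM + 1) scale, and that between RCdM1 and RCdM0 was 0.19 ± 0.14. The difference between these first-day changes, CdM minus Cd, was -0.79 ± 0.20. The gene was higher with melatonin on day 0 by 0.54 ± 0.14 and on day 5 by 0.47 ± 0.14, and on day 1 the melatonin difference was -0.26 ± 0.14. In these 3 comparisons the root groups did not overlap.

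In leaves without melatonin 4_116621 was lower on day 1 than on day 0, and with melatonin these days overlapped. CdM leaves held 64.7, 59.2 and 60.2 FPKM on day 0, 83.2, 50.0 and 47.2 FPKM on day 1, and 91.7, 143 and 133 FPKM on day 5. Cd leaves held 73.4, 65.7 and 83.1 FPKM on day 0, 53.2, 40.9 and 50.8 FPKM on day 1, and 86.9, 99.2 and 94.8 FPKM on day 5. Every LCd1 library was below every LCd0 library and every LCd5 library above every LCd1 library, and all LCdM5 libraries were above all LCdM1 libraries. The log2 differences were -0.08 ± 0.21 (SE) for LCdM1 minus LCdM0, -0.61 ± 0.21 for LCd1 minus LCd0, 0.95 ± 0.21 for LCd5 minus LCd1, and 1.04 ± 0.21 for LCdM5 minus LCdM1. LCdM5 and LCd5 had the highest means of the 12 groups, 122.8 and 93.7 FPKM.

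The isoform shares of 4_116621 varied between groups. The annotated isoform made up a median of 79.8% of the gene in roots and 73.1% in leaves, and an added isoform, novel01, made up nearly all of the rest. The remaining isoform was listed at 0 in 34 of the 36 libraries. The added isoform held 35.1, 38.0 and 18.0 FPKM in RCdM5 and 7.90, 10.1 and 6.47 FPKM in RCdM1, without overlap, and made up 99.0% of the difference in mean FPKM between them. Its share of the gene was 44.6% ± 10.2 in RCdM5 and 31.7% ± 17.5 in RCd5 (SD, n = 3 each). The day 1 level of Cd roots differed in the annotated isoform instead, which held 44.5, 50.5 and 45.0 FPKM in RCd1 and 5.41, 22.3 and 24.1 FPKM in RCd0. In RCd0 replicate 1 the added isoform was the larger one, at 19.0 FPKM.

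**Figure D2:**
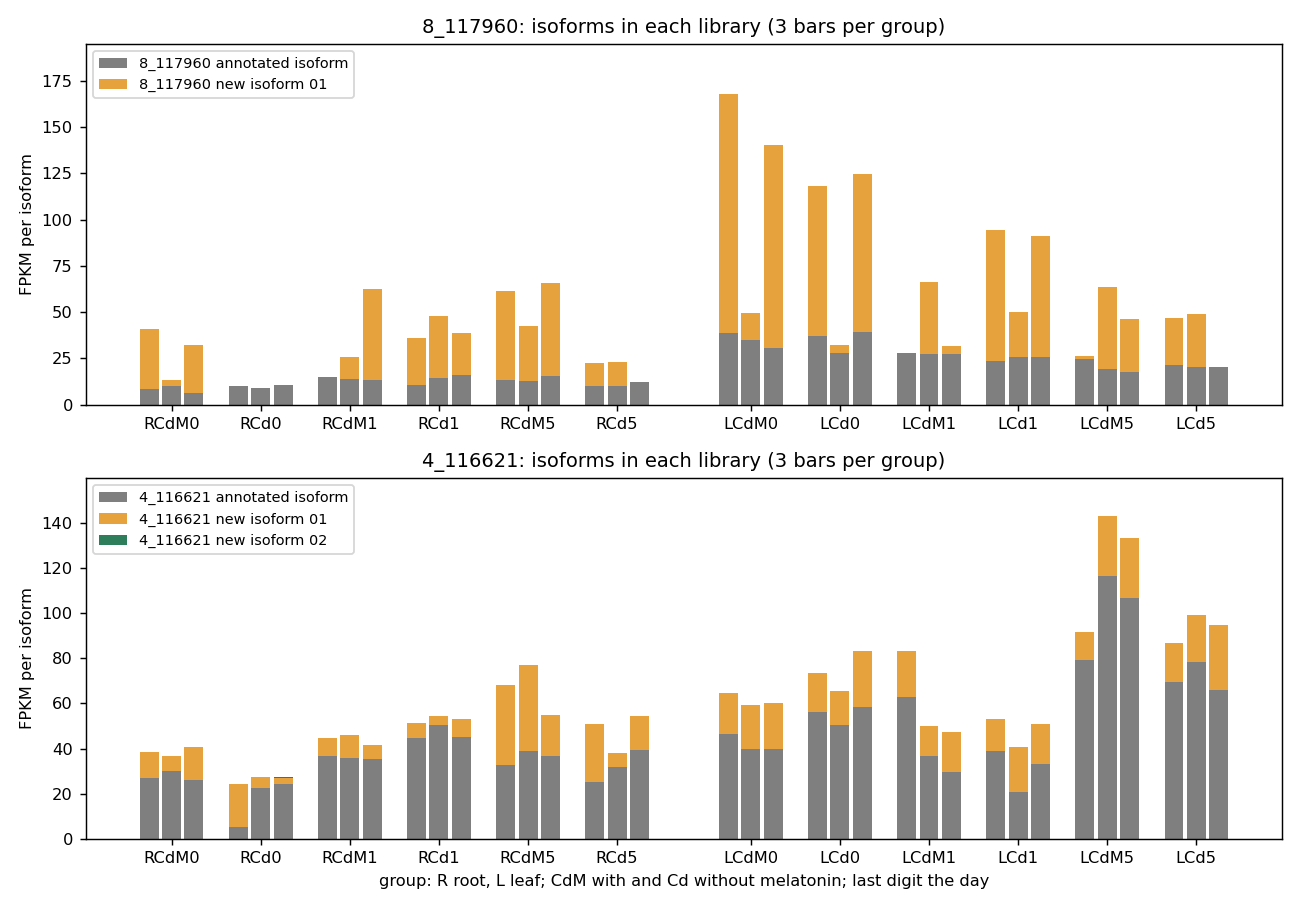
FPKM of each isoform (stacked bars) of 8_117960 and 4_116621 in every library, 3 bars per group, roots on the left and leaves on the right, each with CdM left of Cd at each day. The added isoform of 8_117960 is nearly absent from the RCd0 bars and uneven within most other groups, whereas the annotated isoform holds a similar height within each group.

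The cell redox homeostasis gene 4_59381 was the most abundant of the 4 and the one most tied to leaves. The study also lists it under antioxidant activity, isomerase activity and sulfur metabolism. CdM leaves held 6009, 7660 and 7007 FPKM on day 0, 2714, 2121 and 1492 FPKM on day 1, and 925, 2134 and 1317 FPKM on day 5. Cd leaves held 9003, 8413 and 6027 FPKM on day 0, 1643, 1715 and 1565 FPKM on day 1, and 990, 1080 and 1080 FPKM on day 5. All day 0 leaf libraries stood above all later leaf libraries, and LCd5 lay below LCd1 without overlap, whereas LCdM5 overlapped LCdM1. The differences were -1.74 ± 0.26 (SE) for LCdM1 minus LCdM0 and -2.23 ± 0.26 for LCd1 minus LCd0, and these comparisons had served to choose the gene.

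Roots held less of 4_59381 and kept it within a narrower range. CdM roots held 311, 347 and 174 FPKM on day 0, 310, 260 and 104 FPKM on day 1, and 167, 174 and 257 FPKM on day 5. Cd roots held 343, 426 and 267 FPKM on day 0, 357, 748 and 482 FPKM on day 1, and 234, 288 and 238 FPKM on day 5. RCdM1 lay below RCd1, and RCd5 below RCd1, without overlap. None of the root comparisons passed the limma test with Benjamini-Hochberg adjustment at 0.05. The RCdM1 minus RCd1 difference was -1.31 ± 0.38 (limma adjusted p = 0.0543). Of 13 alternatives only 1 passed, that without RCdM1 replicate 1 (-1.61, limma adjusted p = 0.033). In all 13 the difference of 4_59381 ranged from -1.61 to -0.83, with a limma adjusted p of up to 0.236. Over time in Cd roots its differences were 0.57 ± 0.38 for RCd1 minus RCd0 (limma adjusted p = 0.401) and -1.0 ± 0.38 for RCd5 minus RCd1 (limma adjusted p = 0.177). In CdM roots they were -0.38 ± 0.38 for RCdM1 minus RCdM0 (limma adjusted p = 0.739) and -0.06 ± 0.38 for RCdM5 minus RCdM1 (limma adjusted p = 0.966), and their signs turned in 1 and 4 of 13 alternatives.

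The other cell redox homeostasis gene, 7_16240, also listed under antioxidant activity and sulfur metabolism, was higher in RCd1 than in RCd0 and lower in LCd1 than in LCd0. CdM roots held 324, 207 and 230 FPKM on day 0, 348, 269 and 200 FPKM on day 1, and 205, 258 and 283 FPKM on day 5. Cd roots held 236, 323 and 104 FPKM on day 0, 478, 551 and 406 FPKM on day 1, and 302, 211 and 267 FPKM on day 5. Each RCd1 library stood above every other root library of the table.

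The gene 7_16240 rose in RCd1 against RCd0 by 1.24 ± 0.33 (SE) on the log2(FPKM + 1) scale (limma, adjusted p = 0.0311), in a comparison where 9.36% of root genes were called. The RCd1 libraries also enter the melatonin comparison on day 1 that had chosen this gene, so its p-values against RCd1 are not independent of the choice. With 1 library fewer the difference kept its direction, and the call was lost without RCd0 replicate 3 (0.78, adjusted p = 0.106), RCd1 replicate 1 (1.24, adjusted p = 0.0731), RCd1 replicate 2 (1.14, adjusted p = 0.106) or RCd1 replicate 3 (1.36, adjusted p = 0.0555). The call was also lost when the spread came from the compared groups alone (1.24, limma adjusted p = 0.135). It was lost too when the most abundant isoform took the place of the gene sum (1.00, limma adjusted p = 0.119). The RCd5 minus RCd1 difference was -0.88 ± 0.33 (limma adjusted p = 0.172), that of RCdM1 minus RCdM0 was 0.09 ± 0.33 (limma adjusted p = 0.945) and that of RCdM5 minus RCdM1 was -0.11 ± 0.33 (limma adjusted p = 0.925). The sign of each CdM difference turned in some of its 13 alternatives, 3 for the first day and 2 for the later days.

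Leaves held far less 7_16240 on day 1 than on day 0. CdM leaves held 543, 1141 and 746 FPKM on day 0, 198, 104 and 57.5 FPKM on day 1, and 133, 741 and 227 FPKM on day 5. Cd leaves held 1183, 755 and 753 FPKM on day 0, 128, 58.4 and 82.7 FPKM on day 1, and 207, 157 and 149 FPKM on day 5. All day 1 leaf libraries lay below all day 0 leaf libraries, and every LCd5 library lay above every LCd1 library. LCdM5 replicate 2 stood apart from its group, at the height of day 0. The differences were -2.86 ± 0.55 (SE) for LCdM1 minus LCdM0, -3.35 ± 0.55 for LCd1 minus LCd0 and 0.98 ± 0.55 for LCd5 minus LCd1, in comparisons that had chosen the gene or share their libraries.

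Both redox genes were carried by isoforms that the study's long reads added. The annotated isoform of 7_16240 reached at most 0.754 FPKM and was listed at 0 in 24 libraries. Its isoform novel03 made up a median of 68.7% of the gene in roots and 74.3% in leaves, and novel01 made up 31.2% in roots and 25.6% in leaves. For 4_59381, with 10 isoforms, novel05 made up a median of 55.1% in roots and 59.8% in leaves, and novel02 made up 26.3% in roots and 24.3% in leaves. All 4 of these isoforms were lower without overlap in LCd1 than in LCd0. That comparison had chosen both genes, and 15.2% of leaf genes were lower in it without overlap. Between RCd1 and RCd0 the novel01 isoform of 7_16240 was higher without overlap and novel03 overlapped, with means of 172 and 306 FPKM in RCd1 and 53.9 and 167 FPKM in RCd0.

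Set side by side, the first day in Cd roots had 3 of the 4 genes higher in RCd1 than in RCd0 without overlap, where 14.5% of the 17227 root genes were. The gene 4_116621 had been chosen on this comparison and 8_117960 may have been, so the count is a description. The limma test called 9.36% of root genes here and 1.21% between RCdM1 and RCdM0. In that melatonin comparison over time only 4_116621 was higher without overlap, where 7.29% of genes were, and the other 3 genes overlapped. From day 1 to day 5 in Cd roots, 3 of the 4 genes were lower without overlap, against 12.9% of genes, and 2.55% of genes were called. From day 1 to day 5 in CdM roots only 4_116621 was higher without overlap, against 11.8% of genes, with 0.702% called. The comparisons share groups, since RCd1 enters both changes over time and the melatonin difference on day 1.

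**Figure D3:**
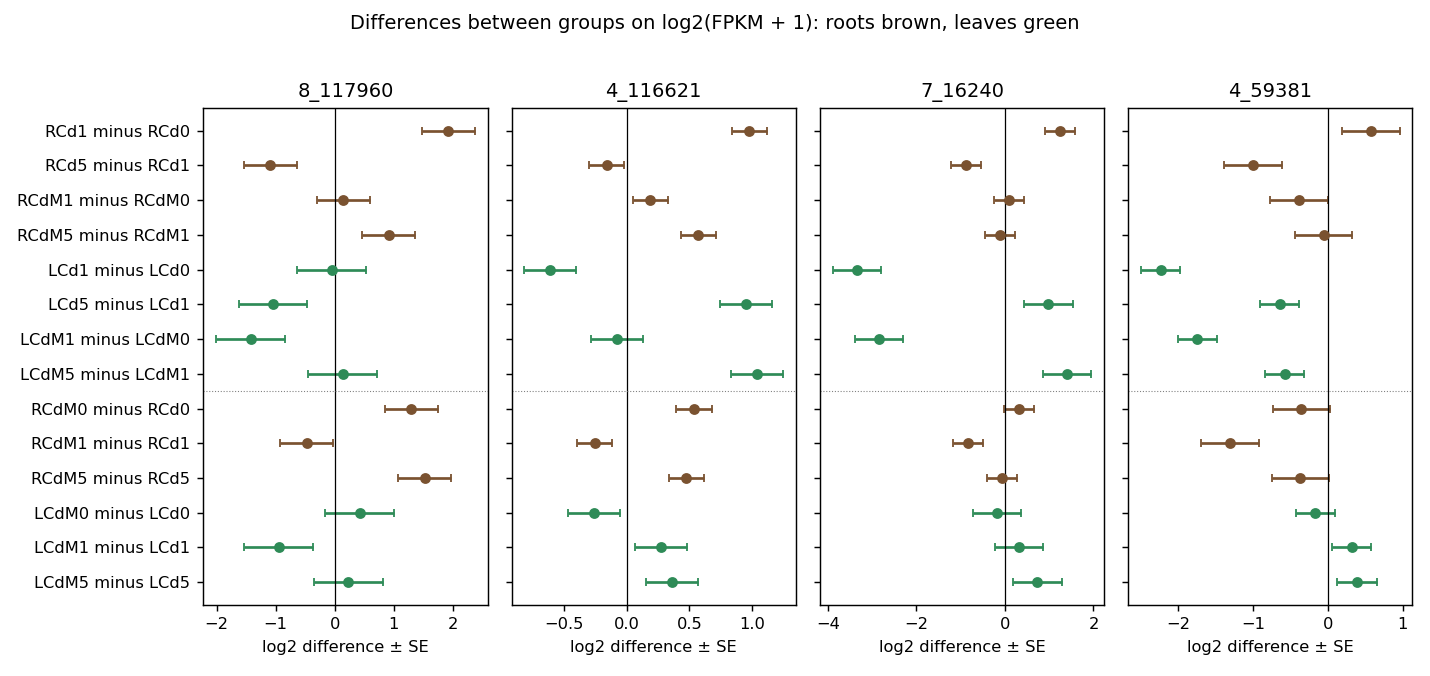
Log2(FPKM + 1) difference ± SE of each of the 4 genes in the 14 comparisons within a tissue, later day minus earlier day and CdM minus Cd, with roots in brown and leaves in green; horizontal scales differ between panels. The points of 7_16240 and 4_59381 for day 1 minus day 0 in leaves lie from -3.35 to -1.74, and the thioredoxin genes have their day 1 minus day 0 points in Cd roots at 1.93 and 0.98.

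In leaves, 3 of the 4 genes were lower in LCd1 than in LCd0 without overlap, where 15.2% of 16800 genes were, and 2.95% of genes were called. The 2 redox genes had been chosen on this comparison. The same count in LCdM1 against LCdM0 was 2 of the 4 genes, 7_16240 and 4_59381, against 10.6% of genes, with 0.256% called. In LCd5 against LCd1, 2 genes were higher, 4_116621 and 7_16240, against 14.0% of genes, and 2 genes were lower, 8_117960 and 4_59381, against 15.8%, with 7.8% called. In LCdM5 against LCdM1 only 4_116621 was higher without overlap, against 11.6% of genes, with 12.2% called. When every library was scaled to the same total FPKM, the median of all leaf genes shifted by 0.23 in LCd1 minus LCd0, by 0.11 in LCd5 minus LCd1 and by 0.30 in LCdM5 minus LCdM1, and the differences of the 4 genes without overlap kept their signs.

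Melatonin differences of the 4 genes were seen without overlap mainly in roots. On day 0 both thioredoxin genes were higher in RCdM0 than in RCd0, where 14.9% of genes were and 0.244% were called. The leaf marker genes were also higher in RCdM0, as given above, and their part in this was not tested. On day 1, 3 genes were lower in RCdM1 than in RCd1, where 19.9% of genes were and 6.5% were called. The leaf marker sum was higher in RCdM1, and its part was not tested here either. The 3 genes were 4_116621, 4_59381 and 7_16240, the last with a difference of -0.83 ± 0.33 (SE) in a comparison that had chosen it. On day 5 both thioredoxin genes were higher in RCdM5 than in RCd5, where 4.45% of genes were, while limma called 0% of the genes and 706 had an unadjusted p under 0.05.

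For the redox genes the melatonin differences that had not served to choose them did not pass limma's test at an adjusted p of 0.05. In roots on day 0 they were 0.32 ± 0.33 (SE) for 7_16240 (limma adjusted p = 0.624) and -0.35 ± 0.38 for 4_59381 (limma adjusted p = 0.635). In roots on day 5 they were -0.06 ± 0.33 and -0.36 ± 0.38, both with a limma adjusted p of 1. The melatonin effect on the first-day change of 4_59381 in roots was -0.96 ± 0.54 (limma adjusted p = 0.886), in a test that called 0 genes and gave 1009 an unadjusted p under 0.05.

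In leaves the melatonin differences of 7_16240 were -0.18 ± 0.55 (SE) on day 0 (limma adjusted p = 0.985), 0.31 ± 0.55 on day 1 (limma adjusted p = 1) and 0.73 ± 0.55 on day 5 (limma adjusted p = 0.742). Those of 4_59381 were -0.17 ± 0.26 on day 0 (limma adjusted p = 0.97), 0.32 ± 0.26 on day 1 (limma adjusted p = 1) and 0.39 ± 0.26 on day 5 (limma adjusted p = 0.706). The groups overlapped in each of them. Of the 4 genes, only 4_116621 had leaf groups without overlap, lower in LCdM0 than in LCd0, where 5.52% of genes were. The tests called 0.0238% of leaf genes on day 0, 0% on day 1, where 757 had an unadjusted p under 0.05, and 0.0774% on day 5.

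Between the tissues, averaged over the 6 conditions, 4_59381 was lower in roots than in leaves, with a difference of -3.18 ± 0.14 (SE) on the log2(FPKM + 1) scale (limma, adjusted p = 3.61e-18). The day 0 and day 1 leaf libraries that had served to choose the gene enter this comparison, so the p-value is not independent of the choice. Its libraries ranged over 104 to 748 FPKM in roots and 925 to 9003 FPKM in leaves, without overlap, where 15.9% of genes were lower without overlap and 81.1% of genes were called in either direction. The tissue difference of 7_16240, to which the same applies, was 0.07 ± 0.19 (limma adjusted p = 0.738), and it became 0.73 (adjusted p = 0.00116) when every library was scaled to the same total FPKM, which moved the median of all genes by 0.57. The thioredoxin genes had tissue differences of -1.11 ± 0.22 for 8_117960 and -0.70 ± 0.07 for 4_116621, which became -0.47 and -0.04 under that scaling. With it, 4_59381 remained lower in roots, by the smallest difference of its 42 alternatives, -2.51.

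The order of the 12 group means differed between the genes. For 4_59381 all 6 leaf groups stood above all root groups, with steps free of overlap between LCdM0 and LCdM1 and between LCd5 and RCd1. For 7_16240 the order began with LCd0, LCdM0 and RCd1 and ended with LCd5, LCdM1 and LCd1, and every pair of neighbours overlapped. For 4_116621 the order began with LCdM5, LCd5 and LCd0 and ended with RCdM1, RCdM0 and RCd0, with RCdM1, RCdM0 and RCd0 separated from each other. For 8_117960 it began with LCdM0, LCd0 and LCd1, and only RCd5 and RCd0, the lowest 2 groups, did not overlap as neighbours.

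Of the 3 other thioredoxin genes named here, 2 were lower in RCd1 than in RCd0 and the other did not pass the test. From these libraries the study had named Lsat_1_v5_gn_7_18261 for a high level in roots on day 0. It had named Lsat_1_v5_gn_5_4600 for a higher level in roots than in leaves. The differences that led to the naming are given with no p-value, and limma's call of 7_18261 is not independent of the choice. The trxA gene Lsat_1_v5_gn_7_18261 held 295, 192 and 160 FPKM in RCd1 and 343, 455 and 731 FPKM in RCd0, and fell by 1.21 ± 0.32 (SE) on the log2(FPKM + 1) scale. The trxA gene Lsat_1_v5_gn_5_4600 held 174, 112 and 88.9 FPKM in RCd1 and 164, 154 and 393 FPKM in RCd0, with a difference of -0.84 ± 0.37 (limma adjusted p = 0.184). It was a root gene, at 54.5 to 393 FPKM in roots and 0 to 13.4 FPKM in leaves, and was higher in roots by 4.04 ± 0.23. A new gene described as a thioredoxin, Novelgene0889, held 32.5, 31.3 and 36.9 FPKM in RCd1 and 64.3, 64.4 and 129.8 FPKM in RCd0, and fell by 1.26 ± 0.32 (limma, adjusted p = 0.026). With 1 library left out, the difference of 7_18261 ranged from -1.46 to -0.92 and that of Novelgene0889 from -1.42 to -0.92, both smallest without RCd0 replicate 3. The call of 7_18261 was lost without RCd0 replicate 2 or 3 or RCd1 replicate 2 or 3. The call of Novelgene0889 was lost without RCd0 replicate 3 or RCd1 replicate 1, 2 or 3 (limma adjusted p of 0.114, 0.0671, 0.0801 and 0.0565). Both were also lost with the most abundant isoform or the compared groups alone.

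The new genes whose descriptions name other thiol proteins were described by tissue. Novelgene1069, a thioredoxin reductase by description and so of the kind of enzyme that returns electrons to thioredoxin, ranged over 0.334 to 1.63 FPKM in roots and 17.2 to 54.9 FPKM in leaves. Its roots minus leaves difference was -4.14 ± 0.07 (SE; limma, adjusted p = 1.79e-27). The glutaredoxins were also lower in roots, Novelgene1101 with a difference of -4.16 ± 0.20 (limma, adjusted p = 5.88e-17) and Novelgene0278 with -0.70 ± 0.10 (limma, adjusted p = 5.71e-07). Novelgene1277, described as an endoplasmic reticulum oxidoreductin, which passes disulfide bonds to newly made proteins, stayed at or below 6.68 FPKM in all libraries. Of the 5 new genes tested, Novelgene0889 included, limma called 3 lower in roots, those just given. The other 2, Novelgene0889 and Novelgene1277, were called higher in roots. Over all genes 36.5% were called lower in roots and 44.6% higher. Scaling every library to the same total FPKM moved the median of all genes by 0.57. With it, limma called 2 of the 5 new genes lower in roots and 2 higher. The glutaredoxin Novelgene0224 did not reach 1 FPKM in any library and was not tested.

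The lists of the study's terms were compared without the 4 genes. They came from term tables of leaf genes picked as changed after the first day, so their counts in LCd1 against LCd0 are not independent evidence of a direction. In that comparison 8 of 13 antioxidant activity genes and 4 of 10 cell redox homeostasis genes were lower, and 4 of 4 protein-disulfide reductase activity genes were higher. Over all leaf genes 2.04% were called lower and 0.911% higher. The list medians were -1.03, -0.90 and 1.51, against -0.06 over all leaf genes. Of the sulfur metabolism genes 2 of 3 were lower, and 0 of 5 new genes and 0 of 2 trxA genes were called by limma, with 2 and 0 at an unadjusted p under 0.05. With libraries scaled to the same total the lower counts were 3 antioxidant and 0 cell redox homeostasis genes. With 1 library of LCd1 or LCd0 left out they were 1 to 7 and 0 to 3, while the count of higher protein-disulfide reductase genes was 2 to 3. With the spread from the 2 compared groups alone these counts were 1, 0 and 1.

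The same lists were counted in Cd roots, which had not served to choose them; how the lists differ between the tissues was not tested. Of the tested genes 1 of 12 under antioxidant activity was higher in RCd1 than in RCd0, and 0 of 9 under cell redox homeostasis passed limma's test in either direction, nor did any have an unadjusted p under 0.05, with medians of -0.10 and 0.25 against 0.00 over all root genes. Over all root genes 4.46% were called higher and 4.89% lower. The antioxidant gene was Lsat_1_v5_gn_8_10740, with 326, 293 and 364 FPKM in RCd1 and 58.5, 76.8 and 41.8 FPKM in RCd0, a rise of 2.49 ± 0.26 (SE; limma, adjusted p = 0.000117). The same gene held 280, 193 and 149 FPKM in LCd1 and 1216, 787 and 988 FPKM in LCd0. Of the protein-disulfide reductase activity genes 1 of 4 was lower in RCd1 than in RCd0 and 3 were not called, with a list median of -0.06. The lower gene, Lsat_1_v5_gn_9_26160, held 21.6, 28.6 and 23.8 FPKM in RCd1 and 50.7, 43.4 and 84.6 FPKM in RCd0. It fell by 1.19 ± 0.26 (limma, adjusted p = 0.0113). Its call was lost without RCd0 replicate 3 (-0.91, adjusted p = 0.0515) and with the compared groups alone (-1.19, adjusted p = 0.0598). It held 16.4, 39.4 and 35.2 FPKM in LCd1 and 3.40, 2.94 and 2.08 FPKM in LCd0. Of the sulfur metabolism genes 1 of 3 was lower in RCd1, Lsat_1_v5_gn_6_65880, with a difference of -1.03 ± 0.16 (limma, adjusted p = 0.00178).

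**Figure D4:**
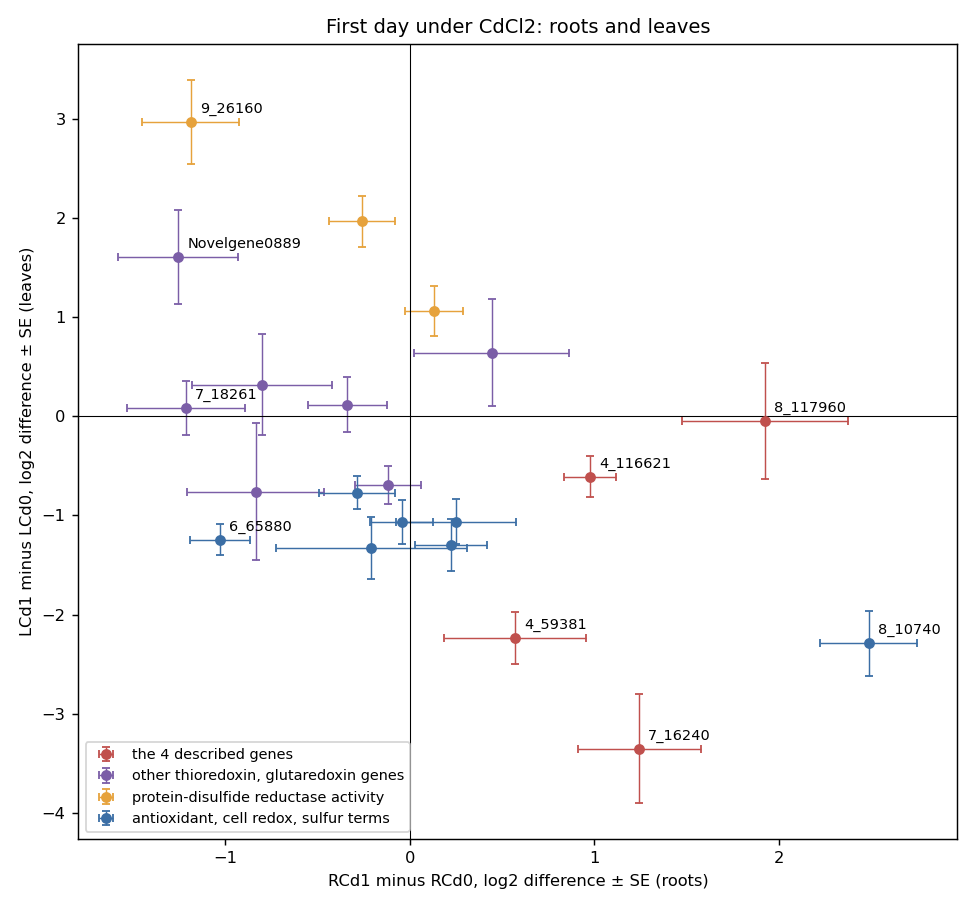
Log2(FPKM + 1) difference ± SE of RCd1 minus RCd0 (horizontal) and LCd1 minus LCd0 (vertical) for the 4 genes and the named genes of the thioredoxin and redox lists. The gene 7_16240 lies at 1.24 and -3.35 and Lsat_1_v5_gn_8_10740 at 2.49 and -2.29, both higher in roots and lower in leaves, whereas Lsat_1_v5_gn_9_26160 lies at -1.19 and 2.96.

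The lists were also counted between tissues. Their genes had been picked from leaf libraries that enter this comparison, so these counts are not independent of the choice. Of the antioxidant activity genes 12 of 13 were lower in roots than in leaves and 1 was higher, and all 10 cell redox homeostasis genes were lower in roots, where 36.5% of all genes were called lower and 44.6% higher. Of the protein-disulfide reductase activity genes 3 of 4 were higher in roots. The medians were -3.47, -2.98 and 0.84, against 0.11 over all genes.

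The genes whose pattern was most like each of the 4 were sought over the 36 libraries after the mean of each tissue was removed, among 18056 genes. The redox genes had close companions: for 7_16240 the highest Pearson r were 0.935, 0.931 and 0.931, with Lsat_1_v5_gn_5_105641, Lsat_1_v5_gn_8_4241 and Lsat_1_v5_gn_1_72281. For 4_59381 they were 0.856, 0.850 and 0.840, with Lsat_1_v5_gn_2_106520, Lsat_1_v5_gn_8_4241 and Novelgene1749, so that Lsat_1_v5_gn_8_4241 was among the first 3 for both. The study lists Lsat_1_v5_gn_5_105641 under amino acid biosynthesis and carbon metabolism, and Lsat_1_v5_gn_2_106520 under biosynthesis of secondary metabolites. The 2 redox genes had an r of 0.763 with each other, 0.582 over the 18 root and 0.808 over the 18 leaf libraries. By r, 4_59381 ranked 11 among the genes most like 7_16240, and 7_16240 ranked 35 for 4_59381. Both had been chosen as changed in leaves between day 0 and day 1, so their r over leaves is not independent of the choice.

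The thioredoxin genes were less alike. For 4_116621 the highest r were 0.846, 0.823 and 0.806, with Lsat_1_v5_gn_3_4460, Lsat_1_v5_gn_9_8340 and Novelgene2147. For 8_117960 they were 0.647, 0.647 and 0.627, with Lsat_1_v5_gn_1_82460, Lsat_1_v5_gn_3_22560 and Lsat_1_v5_gn_4_78821. With each other the thioredoxin genes had an r of 0.207, 0.684 over root and -0.223 over leaf libraries. The gene 4_116621 had been chosen on RCd1 against RCd0 and 8_117960 may have been. Their r over roots is therefore not independent of the choice. These values are descriptions over libraries that share groups and days, and carry no test.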

How the data were processed

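RNA of roots and leaves was sequenced on an Illumina platform in 36 libraries, 3 for each of 12 groups. The authors deposited 1 table of FPKM values for 59872 isoforms of annotated genes and of genes and isoforms added from their long reads; the submitters' processing notes name TopHat2 2.0.12 and Bowtie2 2.0.6. The study's methods describe gene counts, whereas the table holds isoform FPKM, and the tool that gave these values was not given in the sources used here. A median of 1182 values per library lay above 0 and below 0.001. The identifiers matched 0 entries of the RefSeq gene table, so no gene names, positions or sequences were added.

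Isoform FPKM were summed per gene. log2(FPKM + 1) was tested with limma 3.58.1 (R 4.3.3; lmFit, eBayes with trend), with 1 mean per group, in the 18 libraries of each tissue and in all 36 for the tissue comparison. Genes under 1 FPKM in all but 2 or fewer libraries of a fit were dropped; p-values were adjusted by Benjamini-Hochberg over all genes of the fit and called under 0.05. The code was checked on simulated data.

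The 4 genes and the gene lists were chosen with earlier results of these data known. Lists came from the study's term tables, from descriptions of new genes and from the trxA genes its text names. The text names the 4 genes, these trxA genes, the new genes of the description list, up to 3 genes of each other list with the largest change in a comparison described, and the 3 genes most like each of the 4. The 2 redox genes were also members of the lists for antioxidant activity, cell redox homeostasis and sulfur metabolism and were left out of the list counts.

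Alternatives were a pseudocount of 0.1, no filter, median-ratio library scaling, the most abundant isoform in place of the sum, the compared groups alone, the replicate block and each library left out; scaling to equal total FPKM was chosen after seeing the data. Groups share replicate numbers in the labels. Deviations from the group means of same-numbered libraries correlated over 0.1 in all 3 pairs only for LCdM1 and LCd1 (0.32, 0.27 and 0.14), where the block left 0 calls as without it.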

Additional observations from a re-analysis of the deposited data

Results flagged for a closer look

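The 4 genes and the named list genes were searched, over pairs of comparisons, for groups without overlap in opposite directions. The share of all genes that meet this rule was not computed. Several of the genes searched had such groups in the 2 tissues, or on different days. The differences between those changes, given on the log2(FPKM + 1) scale, were not tested except where stated. On the first day under Cd, 7_16240 differed by 1.24 in roots and -3.35 in leaves, 4.59 apart, and 4_116621 by 0.98 in roots and -0.61 in leaves, 1.59 apart. From day 1 to day 5 under Cd, 7_16240 differed by -0.88 in roots and 0.98 in leaves, a gap of -1.86. The melatonin difference of 4_116621 on day 0 was 0.54 in roots and -0.26 in leaves, 0.80 apart. Within roots it was -0.26 on day 1 and 0.54 on day 0, a gap of -0.79. This gap is the melatonin effect on the first-day change in roots given above, in a test that called 0 genes. The melatonin difference in roots was 0.47 on day 5 against -0.26 on day 1, a gap of 0.73. These sets share groups, and the genes had been named by the study from these libraries.

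Among the list genes, Lsat_1_v5_gn_8_10740 differed on the first day by 2.49 in Cd roots and -2.29 in Cd leaves (4.78 apart) and by 1.65 in CdM roots and -1.35 in CdM leaves (3.00 apart). Lsat_1_v5_gn_9_26160 went the opposite way, by -1.19 and 2.96 under Cd (a gap of -4.15) and by -1.0 and 2.62 under CdM (a gap of -3.62). The thioredoxin Novelgene0889 differed by -1.26 in Cd roots and 1.60 in Cd leaves on the first day, a gap of -2.86, at levels of 0.409 to 5.54 FPKM in those leaves. Lsat_1_v5_gn_6_101780 differed on the first day under Cd by 0.22 in roots and -1.30 in leaves (1.52 apart), and from day 1 to day 5 by -0.47 in roots and 1.37 in leaves (a gap of -1.85). Novelgene1069 differed from day 1 to day 5 under CdM by 0.52 in roots and -0.55 in leaves, 1.07 apart. Its root levels lay around the filter of 1 FPKM, as given above.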

How the results depend on the processing

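Of the differences of the 4 genes under all alternatives, 935 kept their side of the threshold, 30 lost a call, 7 gained one and 0 reversed. Of the 64 differences, 15 had the opposite sign under at least 1 alternative, and 0 of these were among the 26 without overlap between groups. Outside the comparisons given with no p-value, which chose the genes or share those libraries, the changes were those given above for 7_16240 in RCd1 against RCd0, where the call held in 7 of 13 alternatives, for 4_59381 in RCdM1 against RCd1, and for 7_16240 between tissues. With only 3 libraries a group and no counts, precision cannot be set from depth.

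Counts of genes called over the whole table moved more. With a pseudocount of 0.1 they were 0 for RCdM0 against RCd0 (42 otherwise) and 4 for LCdM5 against LCd5 (13). With no filter they were 70 for RCdM5 against RCdM1 (121), 5 for RCdM0 against RCd0, 668 for RCdM1 against RCd1 (1119) and 1 for the melatonin effect on the first-day change (0). Median-ratio scaling gave 15 for RCdM0 against RCd0, and equal totals gave 790 for LCd1 against LCd0 (496). The most abundant isoform gave 6 for RCdM0 against RCd0, 2 for LCdM0 against LCd0 (4) and 3 for the melatonin effect on the first-day change. With the compared groups alone they were 756 for RCd1 against RCd0 (1612), 25 for RCd5 against RCd1 (440), 39 for RCdM1 against RCdM0 (209), 4 for RCdM5 against RCdM1, 84 for RCdM0 against RCd0, 56 for LCd1 against LCd0, 510 for LCd5 against LCd1 (1311), 10 for LCdM1 against LCdM0 (43), 137 for LCdM5 against LCdM1 (2052), 4 for LCdM1 against LCd1 (0) and 3 for LCdM5 against LCd5. The replicate block gave 0 for RCdM0 against RCd0 and 675 for RCdM1 against RCd1; the replicate numbers did not pair the libraries of these groups, although each library correlated best with its own number in RCdM1 against RCdM0. The causes were not tested.

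With 1 library left out, the counts ranged over 969 to 1229 for RCd1 against RCd0, 116 to 258 for RCd5 against RCd1, 44 to 138 for RCdM1 against RCdM0, 5 to 88 for RCdM5 against RCdM1, 0 to 16 for RCdM0 against RCd0, 2 (without RCd1 replicate 2) to 1838 for RCdM1 against RCd1 and 0 to 0 for RCdM5 against RCd5. In leaves they ranged over 149 to 307 for LCd1 against LCd0, 330 to 1199 for LCd5 against LCd1, 4 to 28 for LCdM1 against LCdM0, 645 (without LCdM1 replicate 2) to 2428 for LCdM5 against LCdM1, 2 to 4 for LCdM0 against LCd0, 0 to 0 for LCdM1 against LCd1 and 4 to 60 (without LCdM5 replicate 1) for LCdM5 against LCd5. They were 0 to 3 for the melatonin effect on the first-day change in roots and 14498 to 14637 between tissues. With equal totals the share of higher genes among calls was 84.1% against 30.8% for LCd1 minus LCd0, 82.1% against 31.3% for LCdM5 minus LCdM1, 64.2% against 43.4% for LCd5 minus LCd1, 72.0% against 55.7% for RCd5 minus RCd1, 77.4% against 62.6% for RCdM1 minus RCd1 and 74.9% against 55.0% between tissues. With median-ratio scaling it was 47.0% for LCd1 minus LCd0, 42.2% for LCdM5 minus LCdM1, 43.6% against 30.6% for RCdM1 minus RCdM0 and 53.3% against 69.0% for RCdM0 minus RCd0.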
